A study of Mus musculus with 16 samples.

Results

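Transcripts of 3 genes of vascular signalling, Ednrb, Aplnr and Vash2, were followed in the brains of neonatal mice of 4 genotypes. The members were the spots whose gene symbol in the platform's probe annotation is 1 of these names. Each gene was read by 1 spot, so the members are 3 of 28704 spots and 3 of 10225 named genes. The genes were picked with results of these arrays already known, so every difference between genotypes in their values is given as a description, with no test.

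They were measured on 16 cDNA arrays hybridised in 2 colours. Each of the 4 genotypes had 4 arrays: wild type, Cx32 null, Cx43 heterozygous and Cx43 null. All were newborn mice of the C57BL strain, given as C57BL/6j for wild-type replicates 1 and 2, and their exact age, sex and treatment are not stated. Connexin43 (Cx43, gene Gja1) and Connexin32 (Cx32) are gap junction proteins, the first abundant in astrocytes and the second in myelinating glia. The labels describe neither how the alleles were made nor whether a sample was 1 animal or a pool, so the spread between arrays of a group may be technical. Brain cDNA carried Cy3 and was hybridised against a Cy5 reference pooled from adult aorta, brain, heart, kidney, liver, lung, gonads, spleen and stomach of both sexes.

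Each value is the log2 ratio of brain over this reference after centring the array on its median. Neither the base of the logarithm nor the numerator is given in the labels. Base 2 was assumed, and natural logarithms would make every fold change larger. Brain over reference is the likely direction, since the median of 11 neuron markers lay between 1.60 and 2.66 on the 16 arrays and that of 9 reference tissue markers between -5.92 and -4.19. An array gave a value for 21010 to 24819 spots. Gja1, the gene targeted in the Cx43 lines, lay between 1.13 and 2.47 in the wild type, -2.92 and -0.60 in the Cx43 null, -1.86 and -1.09 in the heterozygous and -0.07 and 0.27 in the Cx32 null brains. For Gja1 the heterozygous brains thus lay within the range of the Cx43 null brains, and where its spot lies relative to the deleted part is not known.

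Ednrb encodes the endothelin B receptor, a G protein-coupled receptor that binds all endothelins. It is present on astrocytes and endothelium, clears endothelin from the circulation, and is known for its role in the neural crest cells that form melanocytes and enteric neurons. Aplnr encodes the apelin receptor, which binds apelin and Apela and guides sprouting endothelium and heart formation. Vash2 encodes vasohibin 2, which promotes angiogenesis and, bound to its partner Svbp, removes the last tyrosine of alpha-tubulin.

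The promoter sequences of Ednrb and Vash2 are shown because the values of these genes went the same way across the genotypes. RefSeq's table for GRCm38.p6 held 2 of the 3 members, and Aplnr has no entry in it. Each sequence is the 250 bases before a transcript start in that table, read 5′ to 3′ on the gene's own strand, with the matches to the motifs below in capitals. Ednrb lies on the minus strand, and its window is chr14:103843702-103843951. Vash2 also lies on the minus strand, and the outermost of its 2 listed windows is chr1:190979297-190979546. RefSeq's outer bounds of the genes reach position 103844508 for Ednrb and 190979368 for Vash2, so both starts lie inside the listed gene.
Ednrb: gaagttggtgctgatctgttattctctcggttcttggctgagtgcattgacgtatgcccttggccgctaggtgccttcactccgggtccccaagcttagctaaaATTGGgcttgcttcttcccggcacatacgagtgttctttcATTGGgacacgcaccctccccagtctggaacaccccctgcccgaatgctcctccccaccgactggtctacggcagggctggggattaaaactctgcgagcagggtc
Vash2: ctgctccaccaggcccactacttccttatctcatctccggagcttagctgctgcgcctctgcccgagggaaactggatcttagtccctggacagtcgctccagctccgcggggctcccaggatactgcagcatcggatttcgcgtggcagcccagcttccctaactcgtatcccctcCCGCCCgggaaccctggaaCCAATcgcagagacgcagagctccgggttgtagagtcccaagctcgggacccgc
The letters searched on both strands were CCAAT, the GC box GGGCGG and the SOX core ACAAT. The Ednrb window held CCAAT on the opposite strand at 146 and 106 bases before the start, and neither of the other motifs. The Vash2 window held CCAAT at 54 bases and the GC box, on the opposite strand, at 73 bases before the start. None of these matches overlap. CCAAT occurs in 33.8% of 32851 promoter windows of this length, the GC box in 32.7% and the SOX core in 27.7%. The G and C content was 56.8% for Ednrb and 62.8% for Vash2.

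Ednrb was high in brain relative to the reference in 3 genotypes and low in the Cx43 heterozygous brains. The wild-type values were 2.08, 1.91 and 1.65 for replicates 2 to 4, with no value for replicate 1, and averaged 1.88 ± 0.22 (SD, n = 3). The Cx43 null values were 1.57, 1.77, 1.41 and 1.88, with a mean of 1.66 ± 0.21 (SD, n = 4). The Cx32 null values were 1.61, 1.80, 1.78 and 1.66, with a mean of 1.71 ± 0.09 (SD, n = 4). These 3 groups overlapped throughout. The heterozygous values were -0.68, -0.79, -0.62 and 0.54, with a mean of -0.39 ± 0.62 (SD, n = 4). All 4 lay below every other array, and replicate 4 lay closer to the other genotypes than the rest of its group.

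The order of the Ednrb levels was wild type, Cx32 null, Cx43 null and Cx43 heterozygous, and only the last step was larger than the spread within the groups. Heterozygous minus wild type was -2.27 ± 0.26 (log2, SE), a 4.82-fold difference, and 9.66-fold if the values are natural logarithms. This was the 60th lowest of 14292 transcripts in that comparison. Heterozygous minus Cx32 null was -2.10 ± 0.24 (4.28-fold), the 3rd lowest of all transcripts. The Cx43 null mean exceeded the heterozygous mean by 2.05 ± 0.24 (4.13-fold), the 5th highest. Between the remaining genotypes Ednrb differed little, by -0.22 ± 0.26 for Cx43 null minus wild type, -0.17 ± 0.26 for Cx32 null minus wild type and -0.05 ± 0.24 for Cx43 null minus Cx32 null.

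In the heterozygous brains Aplnr had the reverse pattern. Among the 3 members it alone had Cx32 null arrays that all lay apart from the wild-type and Cx43 null arrays, by a narrow margin. The wild-type values were -0.74, -0.75 and -0.79 for replicates 1 to 3, with no value for replicate 4 and a mean of -0.76 ± 0.02 (SD, n = 3). The Cx43 null values were -0.83, -0.63, -1.26 and -0.32, with the same mean but a wider spread, -0.76 ± 0.39 (SD, n = 4). The wild-type arrays lay inside the range of the Cx43 null arrays. The Cx32 null values were 0.10, -0.16, 0.47 and 0.46, a mean of 0.22 ± 0.31 (SD, n = 4). All 4 exceeded every wild-type and Cx43 null array, the nearest being Cx32 null replicate 2 at -0.16 and Cx43 null replicate 4 at -0.32. The share of all transcripts in this position was not counted. Of all transcripts, 13.3% were called higher in the Cx32 null than in the wild-type brains (limma, adjusted p under 0.05). That is a different measure, which does not give the share of transcripts with arrays so placed. The heterozygous values were 0.84, 1.18, 0.73 and 1.34, a mean of 1.03 ± 0.29 (SD, n = 4), above every other array.

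On the log2 scale the heterozygous Aplnr mean exceeded that of the wild type by 1.78 ± 0.23 (SE; 3.45-fold), the 38th highest of 14292 transcripts. The Cx32 null mean exceeded the wild type by 0.98 ± 0.23 (1.97-fold), the 340th highest. Cx43 null minus wild type was -0.00 ± 0.23. Cx43 null minus heterozygous was -1.79 ± 0.21, the 8th lowest of all transcripts, and Cx43 null minus Cx32 null -0.98 ± 0.21, the 42nd lowest. The step from Cx32 null to heterozygous was 0.81 ± 0.21 (1.75-fold), the smallest of the 9 differences that set a heterozygous mean against another genotype.

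Vash2 followed Ednrb, with high values in 3 genotypes and values near 0 in the heterozygous brains. All 16 arrays gave a value. The wild-type values were 2.00, 1.81, 1.91 and 1.50, a mean of 1.80 ± 0.22 (SD, n = 4). The Cx43 null values were 1.83, 2.29, 0.93 and 1.70, a mean of 1.69 ± 0.56 (SD, n = 4), the widest spread of the 4 groups. Cx43 null replicate 3 was the lowest of them and the array nearest to the heterozygous group. The Cx32 null values were 2.14, 1.97, 2.13 and 2.37, a mean of 2.15 ± 0.16 (SD, n = 4). The heterozygous values were -0.09, 0.33, 0.26 and -0.11, a mean of 0.10 ± 0.23 (SD, n = 4), below every other array.

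For Vash2, heterozygous minus wild type was -1.71 ± 0.23 (log2, SE; 3.26-fold), the 238th lowest of 14292 transcripts, and heterozygous minus Cx32 null -2.05 ± 0.23 (4.15-fold), the 4th lowest. The Cx43 null mean exceeded it by 1.59 ± 0.23 (3.02-fold), the 24th highest. Cx32 null was the highest group, by 0.35 ± 0.23 over the wild type, and its range overlapped that of the wild type at its lower end. Cx43 null minus wild type was -0.11 ± 0.23 and Cx43 null minus Cx32 null -0.46 ± 0.23. These small differences moved with the scaling and with the weights of the arrays. Quantile scaling gave 0.75 for Cx32 null minus wild type and 0.28 for Cx43 null minus wild type. Array quality weights gave 0.36 for Cx43 null minus wild type and 0.046 for Cx43 null minus Cx32 null. All of these but the 0.75 had the sign turned.

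**Figure D1:**
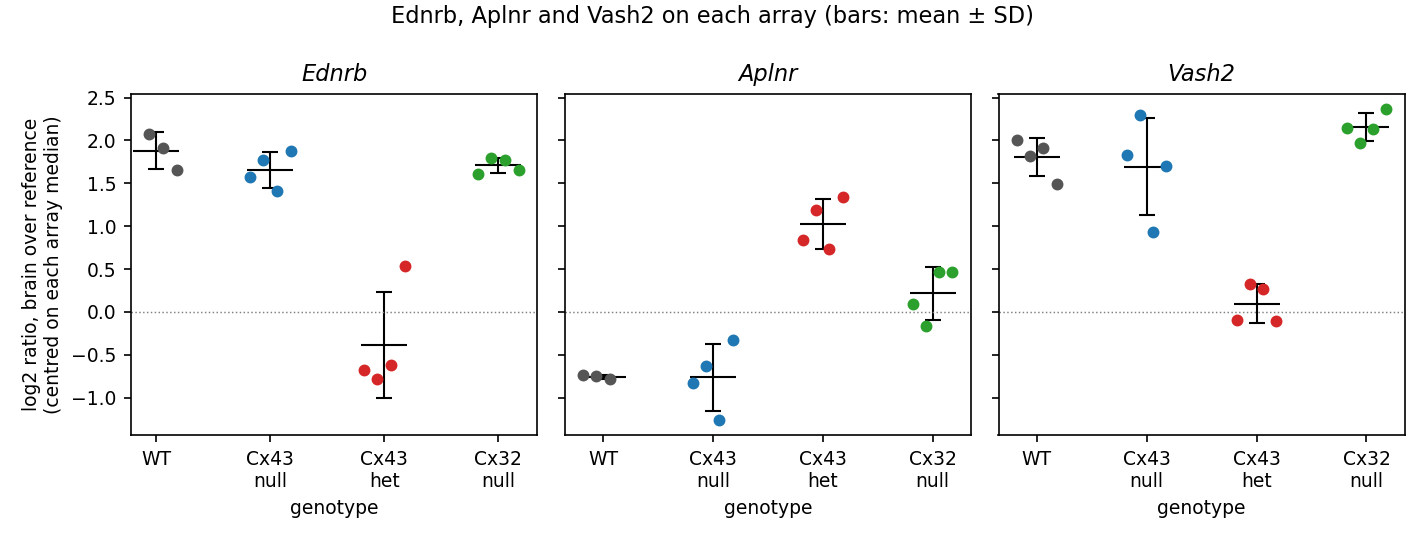
Centred log2 ratio of brain over reference for Ednrb, Aplnr and Vash2 on each array, by genotype (points, replicates 1 to 4 from left to right; bars, mean ± SD of 3 or 4 arrays). The 4 heterozygous arrays lie below all others for Ednrb and Vash2 and above all others for Aplnr, while the Cx32 null arrays take a middle level for Aplnr alone.

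**Figure D2:**
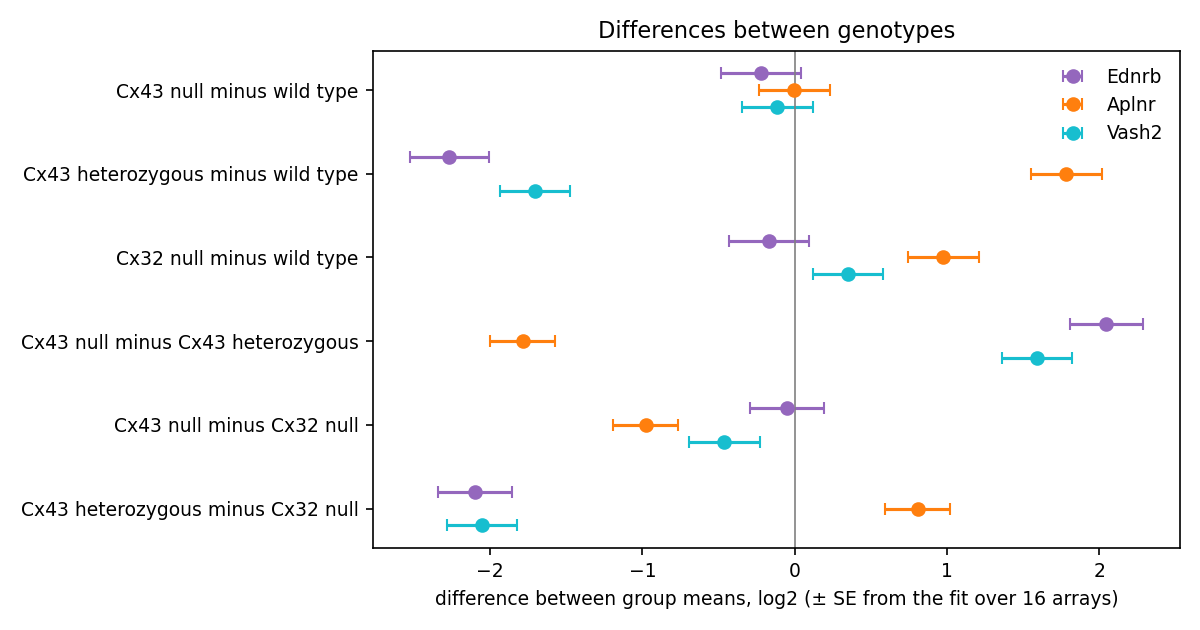
Differences between genotype means for the 3 members on the log2 scale, with the standard error of the fit over 16 arrays. The 3 comparisons that hold the heterozygous group have the largest values for Ednrb and Vash2, and Cx43 null minus wild type lies within 1 standard error of 0 for all 3 members.

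The heterozygous arrays lay wholly outside the other arrays for all 3 members. This was so for 1.39% of all transcripts on the lower side and 1.25% on the upper side, and the members had been picked on these values. The gap between the groups, from the nearest heterozygous array to the nearest of the others, was 0.88 for Ednrb, 0.60 for Vash2 and 0.26 for Aplnr on the log2 scale. A gap at least as wide was found in 6 transcripts for Ednrb, 26 for Vash2 and 89 for Aplnr, each count including the gene itself. Aplnr thus stands just outside the range of the other arrays, and Ednrb far from it. Without heterozygous replicate 4 the gap of Ednrb was 2.03, and without Cx43 null replicate 3 that of Vash2 was 1.17. The arrays stayed apart for each member with the values as deposited, with quantile scaling and with cyclic loess scaling, the narrowest gap being 0.17 for Aplnr as deposited.

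Against the mean of the other 3 genotypes, the heterozygous mean was -2.14 for Ednrb, the 5th lowest of 14292 transcripts, -1.78 for Vash2, the 12th lowest, and 1.46 for Aplnr, the 31st highest. The heterozygous mean was also set against the midpoint of the wild-type and Cx43 null means, and differed from it by -2.16 for Ednrb, -1.65 for Vash2 and 1.79 for Aplnr. For each member the wild type and the Cx43 null lay on the same side of the heterozygous group.

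**Figure D3:**
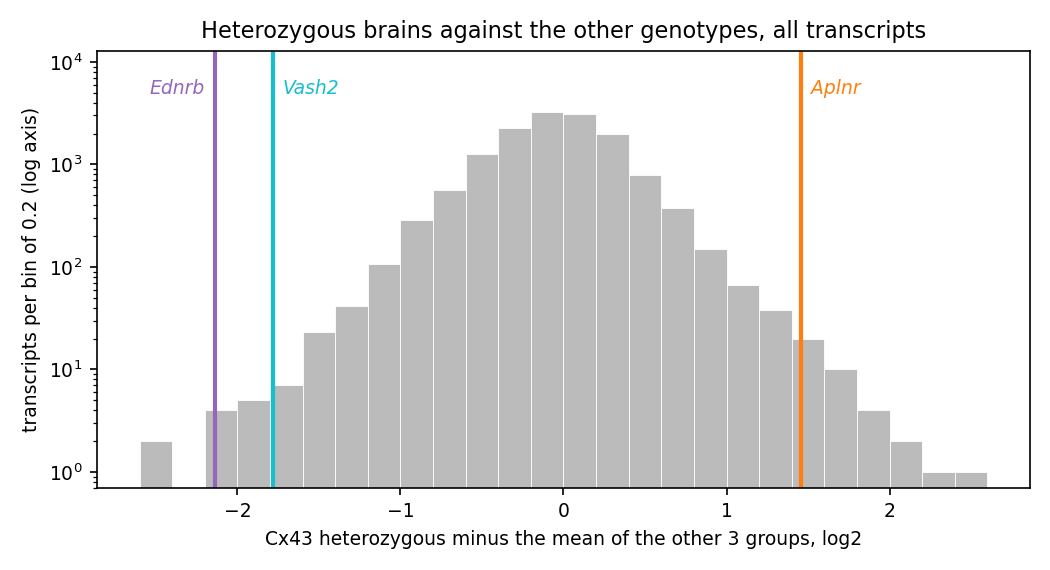
Number of transcripts (log axis) by the difference of the Cx43 heterozygous mean from the mean of the other 3 groups, in bins of 0.2 on the log2 scale, for all 14292 transcripts. Ednrb at -2.14 and Vash2 at -1.78 lie in the lower tail and Aplnr at 1.46 in the upper tail.

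Several properties of the arrays moved with the heterozygous group. A value on all 4 heterozygous arrays and on no other array was found for 279 spots, against 1 for the wild type, 5 for the Cx43 null and 0 for the Cx32 null arrays. The converse, no value on any heterozygous array but values on at least 11 of the other 12, held for 266 spots, against 3, 0 and 90. The 120 spots nearest each member in spot number were also compared. Over them the median correlation of the heterozygous with the other arrays was 0.90 at Ednrb, 0.82 at Aplnr and 0.88 at Vash2. Among the other arrays it was 0.89, 0.79 and 0.87. The median shift of those spots in the heterozygous group was -0.11, 0.02 and -0.08. These values describe other spots and not the members' own.

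Because each member has 1 spot, no second spot could be set beside it. Among genes with several spots, 54 spots had a heterozygous mean at least 1.4 away from the mean of the other genotypes. The other spots of the same gene went the same way in 37 of these cases and by at least 0.7 in 7, or 13.0%. For spots that set the wild type apart by as much, this share was 44.4% of 311, and for the Cx32 null it was 4 of 16. The part of spot identity or array handling in the members' values was not tested.

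Wild-type replicate 1, which has no Ednrb value, stood apart from its group, with correlations of 0.68 to 0.76 with the other wild-type arrays, which correlated at 0.85 to 0.92 with each other. Leaving out any 1 array moved the heterozygous minus wild type difference only within -2.58 to -2.13 for Ednrb, 1.68 to 1.88 for Aplnr and -1.81 to -1.64 for Vash2. The Cx32 null minus wild type difference of Aplnr stayed between 0.89 and 1.10.

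The genes around the members in their pathways were taken from 8 lists of vascular signalling that held 152 genes besides the members, of which 65 were measured. These lists and the marker lists below were chosen with earlier results of these data known. Their shares and adjusted p-values are therefore a description and no independent evidence about vascular signalling. Against the wild type, 9 of them rose and 17 fell in the Cx43 heterozygous brains (limma, adjusted p under 0.05 over all transcripts). That is 13.8% and 26.2%, beside 13.7% and 17.6% of all transcripts. In the Cx32 null brains 10 rose and 14 fell, 15.4% and 21.5% beside a background of 13.3% and 14.5%. In the Cx43 null brains 2 rose and 6 fell, 3.08% and 9.23% beside 4.36% and 6.41%. Their median differences were -0.10, -0.16 and -0.01, beside -0.02, -0.03 and 0.01 over all transcripts. All 3 comparisons share the wild-type arrays. Without heterozygous replicate 3 the heterozygous count was 15 in place of 26, and the Cx43 null count of 8 ranged from 1 without Cx43 null replicate 3 to 15 without wild-type replicate 4.

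The position of the members, with every heterozygous array outside all others, was shared by 3 of these 65 genes, 1 below (1.54%) and 2 above (3.08%), beside 1.39% and 1.25% of all transcripts. Bnip3l, a mitophagy receptor induced by low oxygen, lay below, and Pgf, a growth factor of the VEGF family, and Spry4, an inhibitor of receptor tyrosine kinase signalling, lay above. Bnip3l lay between 0.01 and 0.07 on the heterozygous arrays, 0.55 and 1.98 on the wild-type, 0.32 and 0.94 on the Cx43 null and 0.08 and 0.37 on the Cx32 null arrays, so its highest heterozygous and lowest Cx32 null array all but touched. Pgf lay between 1.00 and 2.36 on the 3 heterozygous arrays with a value and between -0.08 and 0.90 on the others. Spry4 lay between 0.30 and 0.96 on the heterozygous arrays, with means of -1.17 ± 0.27, -0.38 ± 0.41 and -0.14 ± 0.19 in the same order. It rose by 1.67 ± 0.22 in the heterozygous brains (limma, adjusted p = 0.000135) and by 1.03 ± 0.22 in the Cx32 null brains (adjusted p = 0.00388). In the Cx43 null brains it rose by 0.79 ± 0.22 (adjusted p = 0.0333), a call that passed in 9 of 19 alternatives, with an adjusted p of up to 0.162.

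Of the endothelin genes around Ednrb, Ece1, Ece2 and Mme were measured, and neither a ligand nor the endothelin A receptor was. Mme encodes neprilysin, a membrane protease that degrades endothelins and other peptides. Its mean was -1.45 ± 0.35 in the wild type and -0.60 ± 0.17 in the heterozygous brains (SD, n = 4 each), where it rose by 0.85 ± 0.21 (limma, adjusted p = 0.00681). It also rose in the Cx43 null brains, by 0.74 ± 0.21 (adjusted p = 0.037), and in the Cx32 null brains, by 0.82 ± 0.23 (adjusted p = 0.0149, and 0.0527 without Cx32 null replicate 1). The Cx43 null call was lost without any 1 of 6 arrays, wild-type replicates 1 to 3 and Cx43 null replicates 2 to 4, with an adjusted p of up to 0.139. Ece1, the enzyme that makes active endothelin from its precursor, fell by 0.51 ± 0.16 in the heterozygous (adjusted p = 0.0199) and by 0.56 ± 0.16 in the Cx32 null brains (adjusted p = 0.0148). These are means of 4 spots, and its fullest spot alone gave 0.14 and -0.13, with adjusted p of 0.693 and 0.733. Without heterozygous replicate 3 the heterozygous value of Ece1 was -0.44 (adjusted p = 0.0671). Ece2, a related enzyme, differed by 0.00 ± 0.28 in the heterozygous brains and passed in no line.

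Of the apelin genes, the beta-arrestins Arrb1 and Arrb2, which bind activated G protein-coupled receptors and end their signalling, and the protease Furin were measured. Arrb1 went from -0.10 ± 0.35 in the wild type to 0.65 ± 0.25 in the heterozygous and 0.79 ± 0.33 in the Cx32 null brains (SD, n = 4 each). These were rises of 0.74 ± 0.20 and 0.89 ± 0.20 (limma, adjusted p = 0.0115 and 0.00564). Arrb2 rose by 0.59 ± 0.17 (adjusted p = 0.0168, and 0.0522 without heterozygous replicate 3) and by 0.82 ± 0.17 (adjusted p = 0.00374). With its fullest spot alone the values of Arrb1 were larger, 1.35 in the heterozygous and 1.44 in the Cx32 null brains. Neither arrestin passed in the Cx43 null brains, where the differences were 0.40 for Arrb1 and 0.52 for Arrb2 (adjusted p = 0.184 and 0.0597). For Arrb2 the Cx43 null arrays lay between 0.01 and 0.67 and the wild-type arrays between -0.30 and -0.14. For Aplnr these genotypes had the same mean. The share of all transcripts with arrays placed as for Arrb2 was not counted, so nothing is drawn from that position. By the different measure of limma calls, 4.36% of all were higher in the Cx43 null brains. The Cx32 null mean was the highest of the 4 for both arrestins, and the heterozygous mean was the highest for Aplnr. Furin, which cuts precursor proteins, differed by -0.43, -0.44 and -0.34 in the Cx43 null, heterozygous and Cx32 null brains and passed in none.

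Of the genes around Vash2, its partner Svbp, the tubulin tyrosine ligase Ttl, which puts back the tyrosine that vasohibins remove, and Agbl5, a carboxypeptidase that trims glutamates from tubulin, were measured. Agbl5 went from 1.60 ± 1.07 in the wild type to 0.28 ± 0.34 in the Cx43 null, -0.03 ± 0.08 in the heterozygous and -0.02 ± 0.38 in the Cx32 null brains (SD, n = 4 each). It fell by 1.63 ± 0.37 in the heterozygous (limma, adjusted p = 0.00386) and by 1.62 ± 0.37 in the Cx32 null brains (adjusted p = 0.00533). It fell by 1.32 ± 0.37 in the Cx43 null brains (adjusted p = 0.0341), a call lost without wild-type replicate 2 or any of Cx43 null replicates 2 to 4, with an adjusted p of up to 0.106. Without wild-type replicate 1 the Cx43 null value was -0.81 (adjusted p = 0.0486). Agbl5 had its highest mean in the wild type. The heterozygous arrays lay between -0.16 and 0.01, below the Cx43 null arrays at 0.02 to 0.78 by a narrow margin and within the range of the Cx32 null arrays, -0.40 to 0.51. Svbp fell by 0.72 ± 0.23 in the heterozygous (adjusted p = 0.0235) and by 0.67 ± 0.23 in the Cx32 null brains (adjusted p = 0.0371). The first call was lost without heterozygous replicate 3 or 4 (adjusted p = 0.0557 and 0.0531), and the second without any Cx32 null array or wild-type replicate 1, which left -0.36 (adjusted p = 0.0708) and moved the heterozygous value to -0.42 (adjusted p = 0.0377). Ttl fell by 0.65 ± 0.19 in the Cx43 null brains (adjusted p = 0.0413) and passed there in 8 of 19 alternatives. The call was lost without any 1 of 6 arrays, wild-type replicates 2 to 4 and Cx43 null replicates 2 to 4 (adjusted p up to 0.153). Quantile scaling gave Ttl a value of -0.29 (adjusted p = 0.367), loess scaling -0.45 (0.106) and the values as deposited -0.65 (0.0615).

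Of the other vascular genes, Efnb2 and 6 more with heterozygous calls that held in every alternative run are described here. Efnb2 fell alike in the heterozygous, Cx32 null and Cx43 null brains, by 1.55 ± 0.22, 1.55 ± 0.22 and 1.57 ± 0.22 (limma, adjusted p = 0.000235, 0.000481 and 0.0023). Its spot lies in a block of spots where 7 arrays were out of step with the others. Efnb2 drops out where such blocks are left out, so that alternative could not be run for it. Fitting only the 2 groups compared lost its Cx43 null call (limma, adjusted p = 0.111). Agt, the precursor of angiotensins, fell by 1.52 ± 0.26 in the heterozygous (limma, adjusted p = 0.000799) and by 1.73 ± 0.26 in the Cx32 null brains (adjusted p = 0.000699). It also fell by 1.28 ± 0.26 in the Cx43 null brains (adjusted p = 0.0132, and 0.0577 without Cx43 null replicate 3). With its fullest spot alone the heterozygous value of Agt was -0.94 (adjusted p = 0.0301). Timp2, a metalloprotease inhibitor that restrains angiogenesis, fell by 1.40 ± 0.25 in the heterozygous and 1.41 ± 0.25 in the Cx32 null brains (adjusted p = 0.000994 and 0.0016). In the Cx43 null brains Timp2 differed by -0.78 and did not pass (limma, adjusted p = 0.0543). Klf4, a transcription factor of quiescent endothelium, fell by 1.61 ± 0.27 in the heterozygous, 1.39 ± 0.27 in the Cx32 null and 1.01 ± 0.27 in the Cx43 null brains (adjusted p = 0.000617, 0.00235 and 0.0297). With the fullest spot alone these values of Klf4 were -0.71, -0.49 and -0.59 (adjusted p = 0.0159, 0.0862 and 0.0689), and the Cx43 null call passed in 10 of 19 alternatives. Without any 1 of wild-type replicates 1 and 2 and Cx43 null replicates 2 to 4 that call was lost, with an adjusted p of up to 0.118. Hif1an, which hydroxylates and restrains the hypoxia-inducible factor, rose by 1.50 ± 0.32 and 1.17 ± 0.32 in the heterozygous and Cx32 null brains (adjusted p = 0.00312 and 0.0141). It differed by 0.95 in the Cx43 null brains without passing (limma, adjusted p = 0.0797). Ackr3, a scavenger receptor of the chemokine Cxcl12, fell by 1.08 ± 0.27 (adjusted p = 0.00645), and Notch4, an endothelial Notch receptor, rose by 0.65 ± 0.18 (adjusted p = 0.012) in the heterozygous brains. Both went the same way in the Cx43 null and Cx32 null brains without passing. Ackr3 differed there by -0.392 and -0.415 (limma, adjusted p = 0.326 and 0.25) and Notch4 by 0.493 and 0.373 (adjusted p = 0.0951 and 0.123). Kng1, a kinin precursor, fell by 2.04 ± 0.48 in the heterozygous and 2.23 ± 0.48 in the Cx32 null brains (adjusted p = 0.00504 and 0.00415), but with cyclic loess scaling the values were -0.65 and -0.98 (adjusted p = 0.161 and 0.0471).

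**Figure D4:**
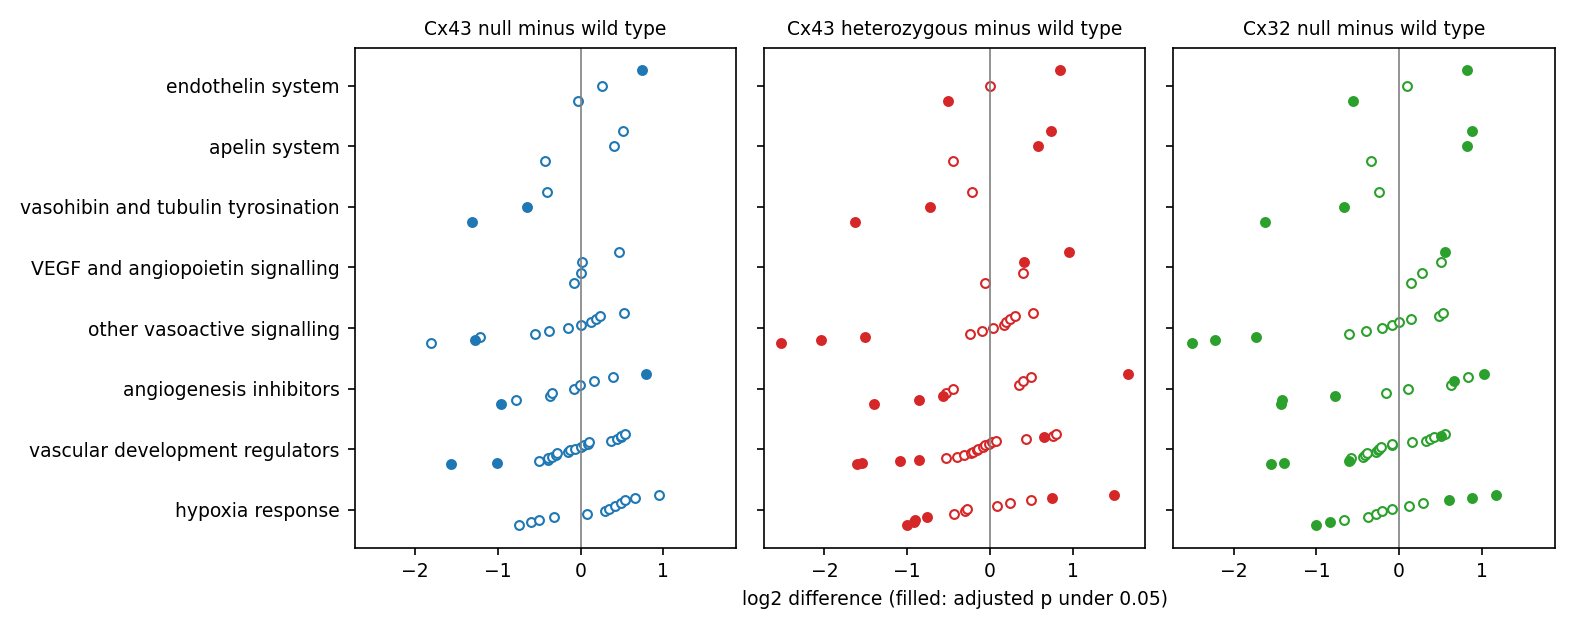
Log2 difference from the wild type for each measured gene of the 8 vascular signalling lists, for the Cx43 null, Cx43 heterozygous and Cx32 null brains (filled points, adjusted p under 0.05; open points, not passing). Of 65 genes, 8, 26 and 24 passed, and the endothelin, apelin and vasohibin lists hold 3 measured genes each.

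Markers of vascular and other cells were set beside the members, since in bulk tissue fewer cells of a type and less RNA per cell cannot be told apart. Of 11 measured endothelial markers, 2 rose and 3 fell in the heterozygous brains, 18.2% and 27.3% beside 13.7% and 17.6% of all transcripts. The same background applies to the marker counts that follow. Plvap, of fenestrated and immature endothelium, fell by 1.46 ± 0.30 (limma, adjusted p = 0.00224), Podxl, a sialomucin of the endothelial surface, fell by 1.16 ± 0.25 (adjusted p = 0.00333), and Cldn5, the tight junction protein of brain endothelium, rose by 0.89 ± 0.27 (adjusted p = 0.0194). Without wild-type replicate 1 or heterozygous replicate 3 the call for Cldn5 was lost (adjusted p = 0.0582 and 0.0528). Podxl also fell in the Cx32 null brains, by 1.26 ± 0.25 (adjusted p = 0.00281). In the Cx43 null brains it fell by 0.90 ± 0.25 (adjusted p = 0.0351), a call that passed in 11 of 18 alternatives. Plvap and Cldn5 passed in neither null line but went the same way there. Plvap differed by -0.94 in the Cx43 null and -0.72 in the Cx32 null brains (limma, adjusted p = 0.0521 and 0.0801). Cldn5 differed by 0.49 and 0.68 (adjusted p = 0.216 and 0.0675). The median of the 11 endothelial markers lay between -0.86 and -0.40 on the heterozygous arrays and between -0.76 and -0.24 on the others. Of 5 pericyte and smooth muscle markers none rose and 2 fell (40%), and their median overlapped among all genotypes. Cnn1, a smooth muscle calponin, fell by 2.14 ± 0.31 (adjusted p = 0.000229). It also fell in the Cx32 null brains, by 1.22 ± 0.31 (adjusted p = 0.00908, and 0.0805 with cyclic loess scaling). In the Cx43 null brains Cnn1 differed by -0.81 and did not pass (limma, adjusted p = 0.0885).

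Of 7 measured red blood cell markers, none rose and 4 fell (57.1%) in the heterozygous brains, among them Alas2, the first enzyme of haem synthesis in red cells, by 1.63 ± 0.30 (limma, adjusted p = 0.0011) and Slc4a1, the red cell anion exchanger, by 1.21 ± 0.19 (adjusted p = 0.000439). In the Cx32 null brains Slc4a1 fell by 1.23 ± 0.19 (adjusted p = 0.000788). Alas2 fell there by 0.92 ± 0.30 (adjusted p = 0.0306), a call that passed in 11 of 19 alternatives. Neither passed in the Cx43 null brains, where Alas2 differed by -0.86 and Slc4a1 by -0.54 (limma, adjusted p = 0.0665 and 0.0679). The median of the 7 lay between -2.37 and -2.01 on the heterozygous arrays, between -1.61 and -0.56 on the wild-type arrays, between -2.76 and -1.20 on the Cx43 null and between -2.05 and -1.62 on the Cx32 null arrays. The heterozygous range thus lay below that of the wild type and overlapped those of both null lines. Of the 3 that did not pass, Hbb-y, an embryonic globin, had a difference of 0.30. Of 11 astrocyte and radial glia markers 2 rose (18.2%) and 4 fell (36.4%) in the heterozygous brains, and their median lay between -0.28 and 0.45. It lay between 0.48 and 1.40 in the wild type, -0.22 and 0.18 in the Cx43 null and -0.14 and 0.13 in the Cx32 null brains. Both the 4 that fell and this median include Gja1, the gene targeted in the Cx43 lines. Gja1 fell by 2.93 ± 0.37 in the heterozygous brains (limma, adjusted p = 0.000116). Of 4 melanocyte and neural crest markers 1 rose, and their median overlapped among all genotypes. The part of these cell types in the values of Ednrb, Aplnr and Vash2 was not tested.

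The named genes whose values over the arrays were most like those of a member were found by Pearson correlation over at least 15 arrays, as a description. For Ednrb these were Lcn2 (r = 0.95), Nav3 (0.95), Cct6a (0.93), Rnf128 (0.92) and Ttc41 (0.91), all over 15 arrays. Nav3, a neuron navigator protein of growing axons, had a mean of 1.73 in the wild type and -0.69 in the heterozygous brains. For Vash2 they were Cdc27 (0.89), Nav3 (0.89), St3gal2 (0.88), Cct6a (0.87) and Ednrb itself (0.87). Without the heterozygous arrays the correlation of Ednrb with Vash2 was 0.36 over 11 arrays, so their likeness rested on the heterozygous group. The opposite course of Aplnr rested on that group too. Its correlation with Vash2 was -0.60 over 15 arrays and 0.69 over the 11 without the group. With Ednrb it was -0.71 over 14 arrays and 0.08 over 10. For Aplnr the genes most alike were Gpatch2l (0.86), Kntc1 (0.85), Fbn2 (0.84), Zfp764 (0.84) and Plk1 (0.83). Plk1, a mitotic kinase, had means of -0.74 in the wild type, -0.66 in the Cx43 null, -0.08 in the Cx32 null and 0.23 in the heterozygous brains, so that, as for Aplnr, the heterozygous mean was the highest and the Cx32 null mean the next. The arrays of a genotype are not independent points for such a correlation. Since these genes were picked by it, a shared order of the genotypes follows largely from the choice.

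**Figure D5:**
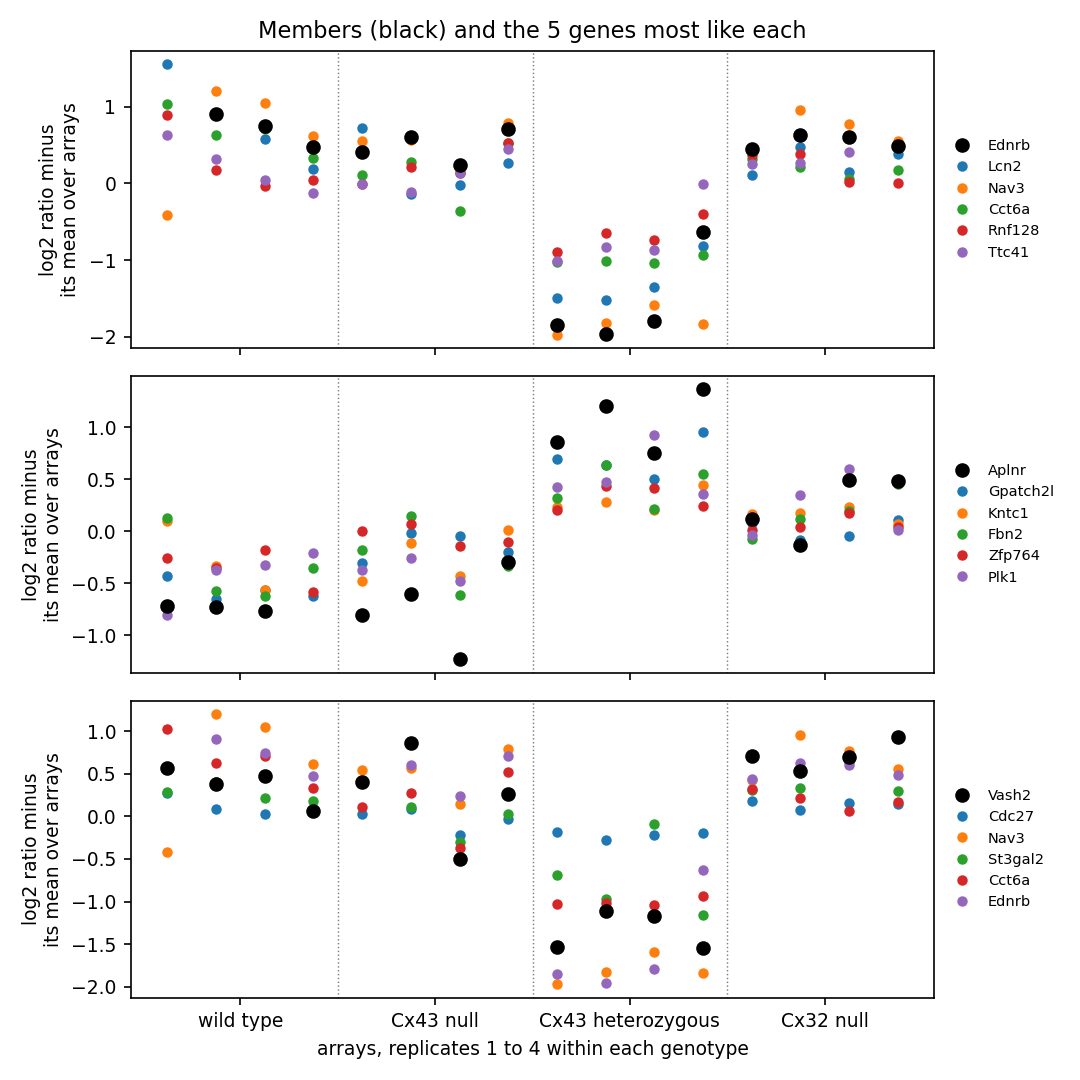
Log2 ratio of each member (black) and of the 5 genes most like it, each minus its own mean over the arrays, on the 16 arrays grouped by genotype. In the upper and lower panels the heterozygous mean is the lowest for every gene drawn, and in the middle panel the heterozygous mean is the highest and the Cx32 null mean the next. The genes were picked by correlation with the member over these same arrays, so this order follows largely from the choice.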

How the data were processed

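Per the labels, each array compared Cy3 brain cDNA with 1 common Cy5 reference. For wild-type replicates 3 and 4 only the dye of the reference is given, and wild-type replicate 3 carries the number 2 in a second label; its title was followed. The authors deposited 1 log ratio per spot and array, read here as log2. Its base, numerator and normalization are not given in the sources used here, nor are intensities or spot flags, so signal over background is not known and the number of arrays limits the precision. Empty cells are spots without a value.

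Spots were named through gene identifiers: 18511 had 1 symbol, 937 several and 9256 none. Arrays were centred on their medians (-0.13 to 0.28 as deposited). As deposited, the median of all transcripts was 0.15 higher in the heterozygous than in the wild-type brains, and after centring -0.02. Spots with at least 3 of 4 values in every group were kept (19951), and spots of a gene were averaged, giving 14292 transcripts (8654 named genes). Missing values were not imputed: the wild-type means of Ednrb and Aplnr rest on 3 arrays. The fit was made with limma 3.58.1 under R 4.3.3 on 4 group means over the 16 arrays (functions lmFit and eBayes, 2-sided tests), with Benjamini-Hochberg adjustment over all transcripts and a threshold of 0.05. Figures were drawn with matplotlib 3.10.9.

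Tested on simulated data with known changes, the fit recovered 59 of 100 changes of 1 log2 unit and 94 of 100 of 2 log2 units for heterozygous minus wild type. Of its 162 calls, 5.56% were false. The simulated noise was normal and independent between arrays, and only these changes were put in. The data themselves had 4474 calls in this comparison and an outlying wild-type array, so these shares may not hold for them.

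The members and the gene lists were chosen with earlier results of these data known. Named list genes were every measured gene of the endothelin, apelin and vasohibin lists and, from the other lists, up to 3 passing in each direction per line with the largest change; a selection of these is printed. The alternatives covered scaling, filters, blocks of spots out of step, spot averaging, the arrays fitted, array weights, a replicate block and leaving out each array.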

Additional observations from a re-analysis of the deposited data

Results flagged for a closer look

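On 4 arrays a value counts as far from its group where its gap to the nearest other exceeds Dixon's 95% critical share of the group's range. Of 224 groups checked over 59 genes, 15 had such a value, and chance gives about 1 in 20. Among the members it was Ednrb on heterozygous replicate 4, at 0.536, beside -0.79 to -0.62 on the other heterozygous arrays; without this array the heterozygous minus wild type difference of Ednrb was -2.58.

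In the genes of the members' pathways, single arrays stood apart for Furin (wild-type replicate 1, -1.68), Svbp (Cx32 null replicate 4, -0.173), Ttl (Cx32 null replicate 4, 2.03) and Agbl5 (heterozygous replicate 2, -0.157). In the other vascular lists they did so for Nrp1, a VEGF co-receptor (Cx43 null replicate 1, -0.066), Agt (wild-type replicate 4, -0.285), Spry4 (heterozygous replicate 1, 0.963), Efnb2, an arterial ephrin ligand (Cx32 null replicate 2, 0.417), and Hif1a, a hypoxia-inducible factor (heterozygous replicate 1, 1.813). Among markers and like genes they did so for Plvap (heterozygous replicate 3, -2.066), Podxl (heterozygous replicate 3, -1.207), Itm2a (wild-type replicate 1, 3.692), Cnn1 (Cx43 null replicate 1, -0.741) and St3gal2 (Cx32 null replicate 3, 1.756).

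Outside the transcripts tested, 279 spots had a value on all 4 heterozygous arrays and on no other array.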

How the results depend on the processing

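Of 321 alternative values of the 18 member differences, 316 kept their size within the spread between replicates. Those that did not were all of Vash2: under quantile scaling, Cx43 null minus wild type was 0.28 and Cx32 null minus wild type 0.75; with array quality weights, Cx43 null minus wild type was 0.36, Cx43 null minus heterozygous 2.08, and Cx43 null minus Cx32 null turned to 0.046. The cause was not tested. Ednrb and Aplnr lack a value on 1 array each and drop out where every array must have one. No pairing of samples by replicate number was seen: deviations of same-numbered arrays correlated between -0.24 and 0.22, and 1 of 16 arrays correlated best with its own number. The labels do not say whether the numbers pair samples. With the replicate number as a block, Cx43 null minus Cx32 null had 6 calls in place of 12, and no other count moved by more than 1.5 times.

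Counts of transcripts moved more. Leaving out 1 array gave 100 to 3049 calls for Cx43 null minus wild type, 3238 to 5143 for heterozygous minus wild type, 2826 to 4624 for Cx32 null minus wild type, 82 to 223 for Cx43 null minus heterozygous, 3 to 38 for Cx43 null minus Cx32 null and 79 to 189 for heterozygous minus Cx32 null. For the vascular lists it gave 1 to 15, 15 to 28 and 21 to 28 for the 3 lines against the wild type. Array quality weights, which gave wild-type replicate 1 a weight of 0.11, gave 5656, 6805, 6342, 2976, 1282 and 1011 calls in the order above, and 30 vascular genes for Cx43 null minus wild type. Fitting only the 2 groups compared gave 0 calls by limma for Cx43 null minus wild type (3099 at an unadjusted p under 0.05) and 0 of its vascular genes, 2308 and 15 for Cx32 null minus wild type, 7 for Cx43 null minus Cx32 null and 280 for heterozygous minus Cx32 null. A value on every array gave 80 for Cx43 null minus heterozygous, 5 for Cx43 null minus Cx32 null and 82 for heterozygous minus Cx32 null, with fewer transcripts tested; at least 2 of 4 values gave 22 and 277 for the last pair. Each spot on its own gave 2342 for Cx43 null minus wild type and 23 for Cx43 null minus Cx32 null. Cx43 null minus Cx32 null had 46 calls under quantile and 22 under loess scaling, and loess scaling left 4 vascular genes for Cx43 null minus wild type. Counting wild-type replicates 2 and 3 once, an alternative chosen after seeing the data, gave 788 transcripts and 4 vascular genes for Cx43 null minus wild type.

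Of 78 calls of named list genes, 34 held in every alternative. Ece1 in the heterozygous brains turned to 0.14 when its fullest spot stood alone.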
